A study of Homo sapiens with 8 samples.

Results

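Epithelial junction and keratin genes were followed by microarray in Hep-3B and Huh7, human hepatoma cell lines, after knockdown of KLHL23, which encodes a Kelch-like adaptor protein. The group was defined as 45 named genes. No threshold on a measured value enters that definition, but the genes were chosen with earlier results of these data known. A gene counted as measured where the array annotation paired at least 1 probe set (the probes that together read 1 transcript) with that gene alone, and the brightest such probe set over the 8 arrays stood for it. This gave 42 genes of 19775 measured in all; F11R, CTNND1 and ESRP2 had no such probe set and were not analysed here. By its title the study dealt with EMT (epithelial-mesenchymal transition), in which epithelial cells loosen their contacts and become motile.

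Both lines received lentivirus (multiplicity of infection 2), underwent puromycin selection from 48 hours and grew in medium with 10% serum. Control cells (shLuc) carried a hairpin named for luciferase, and knockdown cells (shKLHL23) a hairpin against KLHL23. The same hairpin name is used for each line, so loss of KLHL23 and off-target effects of that hairpin cannot be told apart. Each of the 4 groups had 2 arrays, numbered 1 and 3 in the labels. Nothing in the labels says that these came from separate cultures, so the spread behind each p-value may be technical. In such bulk RNA, fewer cells of a kind and less RNA per cell also cannot be told apart.

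Epithelial cells are held together by tight junctions, which seal the space between cells and are built from claudins, occludin and scaffold proteins such as ZO-1, and by adherens junctions and desmosomes, which give mechanical strength. Desmosomes anchor keratin filaments, and in hepatocytes these are made of keratins 8 and 18, while keratins 7 and 19 mark bile duct and progenitor cells. During EMT many of these genes are silenced by repressors of the SNAI and ZEB families, which bind the DNA letters CAGGTG.

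Levels are given as the deposited log2 expression values, on which a difference of 1 is 2-fold. Probe sets bind with different strength, so levels of different genes were not compared with each other. Differences were tested with limma, a linear model fitted to all 19775 genes with Benjamini-Hochberg adjustment, and a gene passed at an adjusted p under 0.05. In Hep-3B, KLHL23 went from 7.81 and 7.84 in control to 7.21 and 6.15 in knockdown replicates 1 and 3 (-1.14, SE 0.27, limma adjusted p = 0.0833). In Huh7 it went from 7.89 and 7.87 to 5.78 and 5.88 (-2.05, SE 0.27, limma adjusted p = 0.00363). All 4 knockdown arrays were thus lower than any control array, and in Hep-3B replicate 3 was the lower of an uneven pair. All 10 hepatocyte markers were present, with gene means of 9.15 to 13.6. Of the other lists, 8 fibroblast and 6 endothelial markers had gene means of at most 7.03 (ACTA2) and 6.32 (PECAM1). These means span unlike lines. ACTA2 had group means of 9.13 and 9.32 in Hep-3B control and knockdown, and 4.72 and 4.94 in those of Huh7. PECAM1 had 7.13 and 6.95 in Hep-3B control and knockdown, and 5.38 and 5.82 in those of Huh7. Among 5 measured blood markers LYZ stood at 11.7. None of these 19 markers passed in either line (0 called by limma), and 1 hepatocyte marker passed in each. At an unadjusted limma p under 0.05 it was 2 of the 19 in Hep-3B and 3 in Huh7. Of all 19775 genes it was 3491 and 5441. The summed level of the blood list, on the log2 scale, was 12.12 to 12.14 in Huh7 control and 12.30 to 12.42 in Huh7 knockdown arrays, and 11.11 to 11.23 and 11.29 to 11.37 in those of Hep-3B. The fibroblast list went from 8.06 to 8.11 up to 8.12 to 8.13 in Huh7 and from 9.56 to 9.64 up to 9.74 to 9.75 in Hep-3B. The endothelial list overlapped in Huh7 (6.84 to 6.99 and 6.97 to 7.13) and was lower after knockdown in Hep-3B (7.76 to 7.84 and 7.63 to 7.67). Their part in the results was not tested. Over the members, replicates differed with an SD of 0.163 and 0.241 in the Hep-3B and Huh7 controls and 0.261 and 0.182 after knockdown.

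In Huh7, 10 of the 42 genes rose after knockdown and 5 fell. Keratin 19 (KRT19) and the protease inhibitor SPINT1 rose 2.50-fold and 2.48-fold, the cytolinker EPPK1 2.02-fold, and claudin 1 (CLDN1) fell 1.69-fold. Over all genes 13.5% passed in Huh7, 5.75% higher and 7.73% lower. The members were mostly bright, and bright genes passed more often: 14 of the 35 members with a mean above 5 passed, against 21.1% of all 11441 genes above 5. When only the genes above 5 were fitted, it was 14 of 35 members and 29.2% of all. The median difference of the members was -0.04, against a median of 0.00 over all genes, with members on either side. Arrays of the Huh7 groups did not overlap for 31 of the 42 members and for 53.7% of all genes (26.5% higher and 27.2% lower after knockdown). Without Huh7 control replicate 1 the count of 15 was 8 (5 higher), and without Huh7 control replicate 3 it was 6 (5 higher). The share of all genes fell as well in these fits, to 2.82% and 2.76%. Between the Huh7 groups the 3' minus 5' probe set difference of ACTB, a measure of RNA integrity, also moved, from 0.873 and 0.833 in control to 0.525 and 0.546 in knockdown arrays. The groups overlapped for GAPDH, with 0.132 and 0.0887 before and 0.148 and 0.112 after knockdown. Their part in these results was not tested.

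In Hep-3B none of the 42 genes passed (0 called by limma), beside 0.693% of all genes. At an unadjusted limma p under 0.05 it was 10 of the 42, and 3491 of all 19775 genes. Of the genes with a mean above 5, 0 of 35 members and 0.97% in all passed after adjustment. The members' median there was -0.02, against 0.02 over all genes. Arrays of the Hep-3B groups did not overlap for 26 members and for 53% of all genes (29.4% higher and 23.5% lower). ELF3, an epithelial transcription factor, came nearest (limma adjusted p = 0.0633). With limma's intensity trend and robust variance together 4 members and 4.3% of all genes passed, and without knockdown replicate 1 it was 4 members and 5.74% of all genes. The ACTB 3' minus 5' difference moved the other way in this line, from 0.442 and 0.537 in control to 0.737 and 0.753 in knockdown arrays. That of GAPDH went from 0.117 and 0.12 to 0.223 and 0.236, and the part of both was again not tested. Replicate 3, the Hep-3B knockdown array with less KLHL23, lay further from the control mean than replicate 1 for 34 of the 42 members and for 66.4% of all genes.

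**Figure D1:**
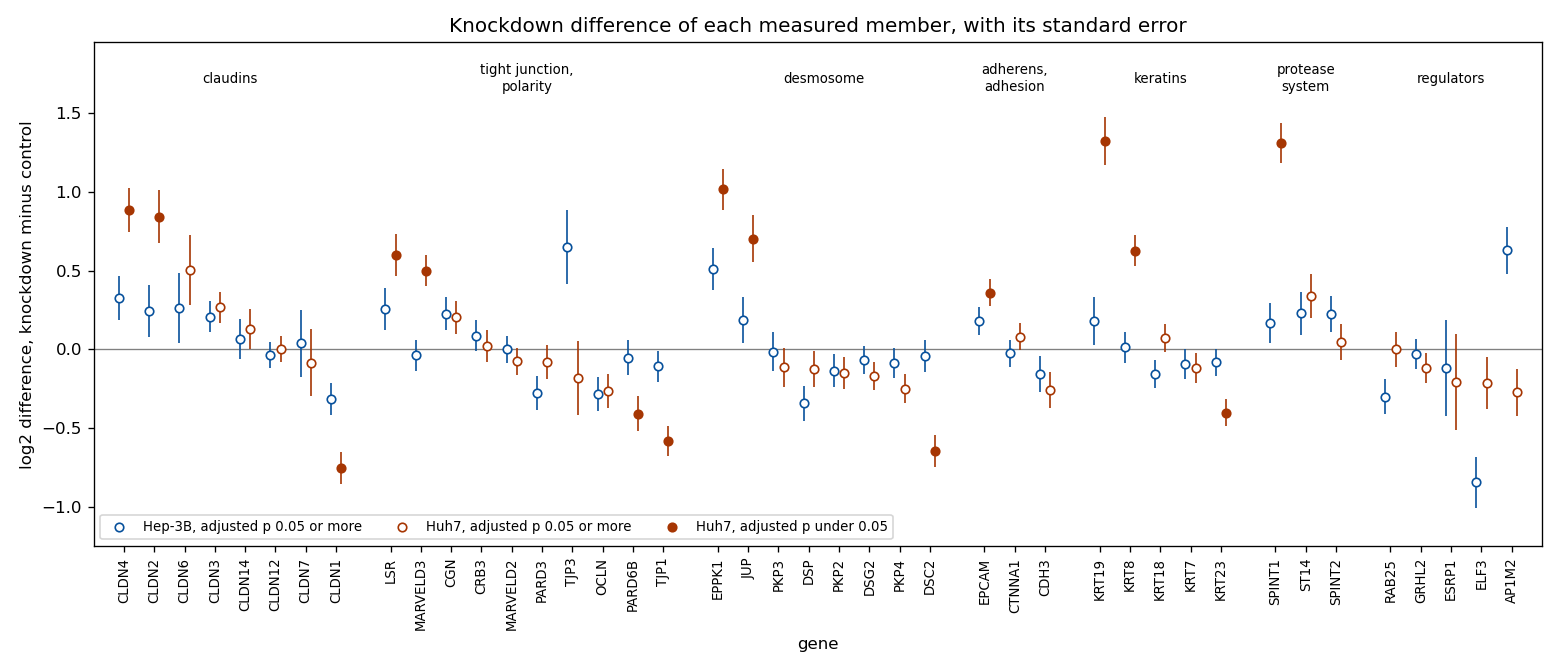
Log2 difference of each measured member, knockdown minus control, with its standard error, in Hep-3B (blue) and Huh7 (brown), ordered by role; filled points had a limma adjusted p under 0.05. All 15 filled points belong to Huh7, from KRT19 at 1.32 to CLDN1 at -0.75, and each role group except the regulators holds at least 1.

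Because the SNAI and ZEB repressors of epithelial genes bind CAGGTG, the 250 bases before each RefSeq gene start (build GRCh38.p14) were searched for these letters on both strands. Of the 45 members 26 were matched in that table, with 42 start sites between them. The letters were found in 15 of these 42 windows (35.7%) and in 17.5% of all 35116 windows. The median GC content was 65.4% for members' windows and 58% for all, and its part in that difference was not tested. Counted by gene, 14 of the 26 members (53.8%) and 20.6% of all 27305 genes had the letters, and the part of GC content was again not tested. Among matched members that rose in Huh7 it was 2 of 6 (JUP and SPINT1), and among those that fell 2 of 3 (DSC2 and TJP1). Of matched members that did not pass, 10 of 17 had the letters. The grainyhead palindrome AACCGGTT was in 0 of the 42 windows and in 0.117% of all. The letters therefore occurred before genes of either direction, and a match is not evidence that a factor binds there.

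The windows of 5 genes are shown, 5′ to 3′, each ending at the base before the gene start, because they cover both directions and the member with the most matches in 1 window; for JUP, SPINT1, TJP1 and DSC2, which have further start sites without a match, the matching window is given, with CAGGTG or its reverse complement CACCTG in capitals. They lie at chr17:41785977-41786226 (minus strand, JUP), chr15:40844227-40844476 (plus strand, SPINT1), chr15:29969050-29969299 (minus strand, TJP1), chr18:31102422-31102671 (minus strand, DSC2) and chr19:6464021-6464270 (plus strand, CRB3).
JUP: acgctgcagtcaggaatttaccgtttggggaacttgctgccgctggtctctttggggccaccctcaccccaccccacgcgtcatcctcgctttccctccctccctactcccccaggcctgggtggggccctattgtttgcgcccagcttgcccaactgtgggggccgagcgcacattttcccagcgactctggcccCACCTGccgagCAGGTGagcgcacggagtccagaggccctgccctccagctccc
SPINT1: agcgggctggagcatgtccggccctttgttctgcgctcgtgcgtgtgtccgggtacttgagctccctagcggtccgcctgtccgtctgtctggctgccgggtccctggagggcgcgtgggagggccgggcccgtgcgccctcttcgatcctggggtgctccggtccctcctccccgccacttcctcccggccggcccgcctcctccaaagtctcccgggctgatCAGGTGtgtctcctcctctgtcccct
TJP1: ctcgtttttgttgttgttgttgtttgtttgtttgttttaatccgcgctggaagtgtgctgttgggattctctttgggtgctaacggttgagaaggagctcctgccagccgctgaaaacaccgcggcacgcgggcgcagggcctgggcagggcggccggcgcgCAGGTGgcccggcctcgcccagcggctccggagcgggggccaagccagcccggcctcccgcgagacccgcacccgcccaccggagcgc
DSC2: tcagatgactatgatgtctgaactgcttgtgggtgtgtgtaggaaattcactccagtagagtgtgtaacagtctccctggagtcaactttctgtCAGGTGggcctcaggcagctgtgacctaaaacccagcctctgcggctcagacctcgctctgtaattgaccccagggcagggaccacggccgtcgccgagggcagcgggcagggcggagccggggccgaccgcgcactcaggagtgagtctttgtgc
CRB3: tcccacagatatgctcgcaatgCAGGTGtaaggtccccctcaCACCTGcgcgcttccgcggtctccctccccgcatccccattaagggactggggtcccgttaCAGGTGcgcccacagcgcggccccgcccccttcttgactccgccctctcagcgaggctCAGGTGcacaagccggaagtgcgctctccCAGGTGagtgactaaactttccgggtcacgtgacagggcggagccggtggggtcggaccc
JUP held matches beginning 54 and 43 bases before its start, SPINT1 26, TJP1 88 and DSC2 156 bases before. CRB3 held 5, of which the nearest began 60 bases before the start, and its transcript did not pass in either line (0.09 in Hep-3B and 0.02 in Huh7).

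Among the 8 claudins, the strands that form the paracellular seal, CLDN4 and CLDN2 rose in Huh7, CLDN1 fell and 5 did not pass. CLDN1 stood at 10.73 and 10.60 in the Huh7 control arrays and at 9.99 and 9.83 in the knockdown arrays. In Hep-3B it stood at 9.48 and 9.47 in control and at 9.23 and 9.09 in knockdown arrays. The groups did not overlap in either line; the difference was -0.75 in Huh7 (SE 0.10, n = 2 per group, limma adjusted p = 0.00384) and -0.31 in Hep-3B (95% interval -0.55 to -0.08, limma adjusted p = 0.157). The dimmer CLDN1 probe set lay at -0.74 (Huh7) and -0.66 (Hep-3B), and among all 41097 probe sets tested it passed in both lines (limma adjusted p = 0.00891 and 0.0448). Over all probe sets 10.6% passed in Huh7 and 1.52% in Hep-3B.

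CLDN4, a claudin that tightens the seal and is scarce in hepatocytes, stood at 5.68 and 5.53 in Huh7 control arrays and at 6.57 and 6.42 in knockdown arrays. In Hep-3B the control arrays lay at 6.77 and 6.76 and the knockdown arrays at 6.88 and 7.29. Its knockdown arrays lay above the controls in both lines, and the difference was 0.88 in Huh7 (SE 0.14, n = 2 per group, limma adjusted p = 0.00652) and 0.33 in Hep-3B (limma adjusted p = 0.273). A dim second probe set of CLDN4 gave -0.13 in Huh7 and did not pass (limma adjusted p = 0.61). The mean of its probe sets, 0.38, missed the threshold too (limma adjusted p = 0.0552). CLDN2, which forms a pore for cations, stood at 4.43 and 4.08 in Huh7 control and at 5.20 and 4.99 in knockdown arrays, without overlap. It lay at 3.71 and 4.14 in Hep-3B control and at 4.13 and 4.21 in knockdown arrays, which overlapped. Its Huh7 difference was 0.84 (SE 0.17, limma adjusted p = 0.0142). Without Huh7 control replicate 3 neither passed (CLDN2 0.67, limma adjusted p = 0.102; CLDN4 0.81, 0.0599), and CLDN2 also did not pass without knockdown replicate 1 (0.74, limma adjusted p = 0.0799). The other 5 ran from -0.09 (CLDN7) to 0.50 (CLDN6) in Huh7. CLDN6 had the largest SE of the claudins there (0.22, limma adjusted p = 0.179).

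Of the 10 other tight junction and polarity genes measured, LSR and MARVELD3 rose in Huh7, TJP1 and PARD6B fell, and 6 did not pass. TJP1, the scaffold ZO-1 that ties claudins to actin, stood at 9.26 and 9.37 in Huh7 control and at 8.65 and 8.82 in knockdown arrays. In Hep-3B it lay at 9.28 and 9.30 in control and at 9.21 and 9.15 in knockdown arrays. Every knockdown array was below the controls of its line; the difference was -0.58 in Huh7 (SE 0.10, limma adjusted p = 0.00763) and -0.11 in Hep-3B (95% interval -0.33 to 0.11). Its other probe set gave -0.40 in Huh7 and passed among all probe sets (limma adjusted p = 0.0328). Without Huh7 control replicate 3 TJP1 was at -0.53 and did not pass (limma adjusted p = 0.0677).

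LSR, a protein of the corners where 3 cells meet, stood at 7.995 and 8.10 in Huh7 control and at 8.64 and 8.65 in knockdown arrays. In Hep-3B it lay at 8.29 and 8.14 in control and at 8.28 and 8.67 in knockdown arrays, which overlapped. The Huh7 difference was 0.60 (SE 0.13, limma adjusted p = 0.0208), and it did not pass when any one of the 4 Huh7 arrays was left out (limma adjusted p = 0.13 and 0.0905 without control replicates 1 and 3, and 0.0795 and 0.0586 without knockdown replicates 1 and 3). MARVELD3, a membrane protein of the occludin family, stood at 6.01 and 6.14 in Huh7 control and at 6.51 and 6.64 in knockdown arrays. In Hep-3B it lay between 6.77 and 6.90 in all 4 arrays. Its rise of 0.50 (SE 0.10, limma adjusted p = 0.0144) was matched by its other probe sets, at 0.46 and 0.64, and did not pass without Huh7 control replicate 1 or 3 (limma adjusted p = 0.108 and 0.0623). The other family members did not pass in Huh7: MARVELD2 (tricellulin) lay at -0.08 and occludin (OCLN) at -0.27.

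PARD6B, a subunit of the apical polarity complex, stood at 8.13 and 7.95 in Huh7 control and at 7.63 and 7.63 in knockdown arrays, and in Hep-3B its groups overlapped, between 8.26 and 8.49. The fall of PARD6B by 0.41 on the log2 scale (SE 0.11, limma adjusted p = 0.0439) had the highest adjusted p of the 15. It did not pass without either Hep-3B control replicate (limma adjusted p = 0.0647 each), without Huh7 control replicate 1 or 3 (0.242 and 0.0932) or without Huh7 knockdown replicate 1 or 3 (0.12 and 0.0949). A dim PARD6B probe set gave -0.61 in Huh7 and passed among all probe sets (limma adjusted p = 0.0192), while another dim one gave -0.33 and the bright one missed there (limma adjusted p = 0.435 and 0.0549). TJP3 (ZO-3) had the largest Hep-3B difference of these genes, 0.65 (limma adjusted p = 0.202), from uneven control arrays of 5.01 and 4.32 to 5.22 and 5.41. PARD3, of the PARD6B complex, lay at -0.08 in Huh7 and -0.28 in Hep-3B, and neither passed.

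OCLN, the first transmembrane protein described in tight junctions, lay at 9.93 and 9.95 in Hep-3B control and at 9.78 and 9.53 in knockdown arrays. In Huh7 it lay at 9.67 and 9.59 in control and at 9.43 and 9.30 in knockdown arrays. The knockdown arrays were lower in both lines by like amounts, -0.29 and -0.27, and neither passed alone (limma adjusted p = 0.223 and 0.154). The mean of both differences, -0.28 (SE 0.08, limma adjusted p = 0.0439), passed. That call was lost when any one array other than Hep-3B knockdown replicate 1 was left out (limma adjusted p from 0.0526 without Huh7 knockdown replicate 1 to 0.141 without Huh7 control replicate 1). The 4 OCLN probe sets gave -0.47 to -0.27 in Huh7 and -0.47 to -0.18 in Hep-3B, all below 0.

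**Figure D2:**
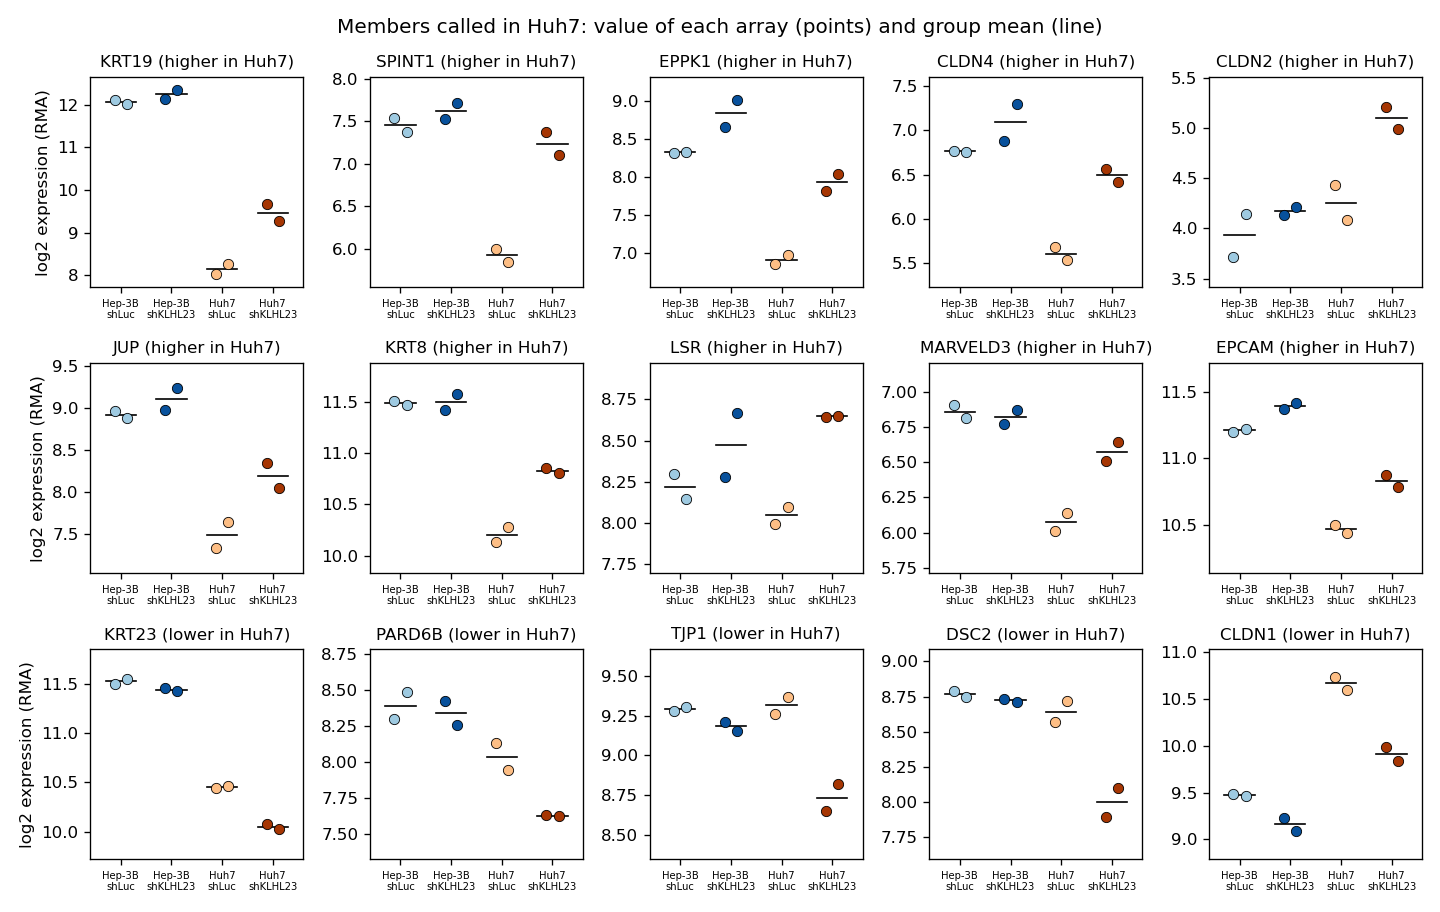
Log2 expression in each of the 8 arrays (points) and group means (lines) for the 15 members that passed in Huh7, each panel on its own axis. In all 15 panels the Huh7 knockdown arrays lie clear of the Huh7 controls; KRT19 goes from 8.02 and 8.26 to 9.67 and 9.26, while its 4 Hep-3B arrays lie between 12.01 and 12.34.

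Of 8 desmosome and linker genes, EPPK1 and JUP rose in Huh7, DSC2 fell and 5 did not pass. EPPK1 (epiplakin), which binds keratin bundles, stood at 6.86 and 6.97 in Huh7 control and at 7.82 and 8.04 in knockdown arrays. Hep-3B gave 8.32 and 8.33 in control and at 8.66 and 9.01 in knockdown arrays. The knockdown arrays were above the controls in both lines; the difference was 1.02 in Huh7 (SE 0.13, limma adjusted p = 0.00359) and 0.51 in Hep-3B (95% interval 0.21 to 0.81, limma adjusted p = 0.0994). Of its 5 probe sets the 3 brightest gave 0.82 to 1.08 in Huh7 and passed among all probe sets, and the 2 dim ones gave 0.12 and -0.12. The mean over them was 0.58 and passed (limma adjusted p = 0.00636).

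JUP (plakoglobin), which links cadherins to keratin and actin, stood at 7.33 and 7.65 in Huh7 control and at 8.34 and 8.04 in knockdown arrays. Hep-3B values were 8.96 and 8.88 in control and at 8.98 and 9.24 in knockdown arrays. Its Huh7 difference of 0.70 (SE 0.15, limma adjusted p = 0.0177) did not pass without control replicate 1 (0.54, limma adjusted p = 0.126) or knockdown replicate 1 (0.55, 0.0923). DSC2 (desmocollin 2), a desmosomal cadherin, stood at 8.57 and 8.72 in Huh7 control and at 7.89 and 8.10 in knockdown arrays, and between 8.71 and 8.79 in all 4 Hep-3B arrays. It fell by 0.65 on the log2 scale in Huh7 (SE 0.10, limma adjusted p = 0.00682), and the dimmer probe sets that read it gave -0.49, -0.48 and, for the dimmest, 0.02 (mean over all -0.40, limma adjusted p = 0.0192). Without Huh7 control replicate 3 it was at -0.57 and did not pass (limma adjusted p = 0.0625). The partner cadherin DSG2 and the plaque proteins DSP, PKP2, PKP3 and PKP4 did not pass in Huh7, at -0.25 (PKP4) to -0.12 (PKP3). In Hep-3B desmoplakin (DSP) had the lowest value of the group, -0.34 (limma adjusted p = 0.16), with control arrays of 12.17 and 12.15 and knockdown arrays of 11.97 and 11.67. A second probe set of DSG2 gave -0.58 in Hep-3B and passed among all probe sets (limma adjusted p = 0.0394), where the brighter one gave -0.07.

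Among adherens junction and adhesion genes 3 were measured, and EPCAM alone passed in Huh7. EPCAM, an adhesion protein of epithelial and progenitor cells, stood at 10.50 and 10.44 in Huh7 control and at 10.88 and 10.78 in knockdown arrays. Hep-3B values were 11.20 and 11.22 in control and at 11.37 and 11.41 in knockdown arrays. The knockdown arrays were above the controls in both lines, by 0.36 in Huh7 (SE 0.09, limma adjusted p = 0.0293) and 0.18 in Hep-3B (95% interval -0.02 to 0.38). The Huh7 call was lost without either Hep-3B control replicate (limma adjusted p = 0.0647 each), without Huh7 control replicate 1 or 3 (0.115 and 0.161) and without Huh7 knockdown replicate 1 (0.0939). CTNNA1 (alpha-catenin) lay at 0.08 in Huh7, and CDH3 (P-cadherin), at array values of 4.06 to 4.71, lay at -0.26.

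Of 5 keratins KRT19 and KRT8 rose in Huh7, KRT23 fell, and KRT18 and KRT7 did not pass. KRT19 stood at 8.02 and 8.26 in Huh7 control and at 9.67 and 9.26 in knockdown arrays. In Hep-3B it was far higher, at 12.10 and 12.01 in control and at 12.14 and 12.34 in knockdown arrays. The Huh7 difference was 1.32 (SE 0.15, limma adjusted p = 0.00212) and that of Hep-3B 0.18 (95% interval -0.16 to 0.52). The difference between the lines, 1.14 (SE 0.21, limma adjusted p = 0.0476), passed, but not with the replicate number as a block (limma adjusted p = 0.057). A dim second probe set of KRT19, with a mean of 4.13, gave 0.00 in Huh7, and the mean of both gave 0.66 and passed (limma adjusted p = 0.0304).

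KRT8 stood at 10.13 and 10.28 in Huh7 control and at 10.85 and 10.81 in knockdown arrays, and between 11.43 and 11.58 in the 4 Hep-3B arrays, whose groups overlapped. It rose by 0.62 on the log2 scale in Huh7 (SE 0.10, limma adjusted p = 0.0065), and without control replicate 1 it was at 0.55 and did not pass (limma adjusted p = 0.0608). KRT18, the partner with which keratin 8 pairs in filaments, lay at 12.06 and 12.13 in Huh7 control and at 12.21 and 12.13 in knockdown arrays. Its difference was 0.07, with a 95% interval of -0.13 to 0.27. KRT23 stood at 10.44 and 10.47 in Huh7 control and at 10.08 and 10.02 in knockdown arrays, and between 11.43 and 11.55 in Hep-3B. Its Huh7 difference of -0.40 (SE 0.08, limma adjusted p = 0.0175) did not pass without control replicate 1 or 3 (limma adjusted p = 0.0961 and 0.11). The 4 probe sets of KRT7 disagreed: the brightest gave -0.12 in Huh7, and the next, with a mean of 4.48, gave 0.90 and passed among all probe sets (limma adjusted p = 0.0107).

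**Figure D3:**
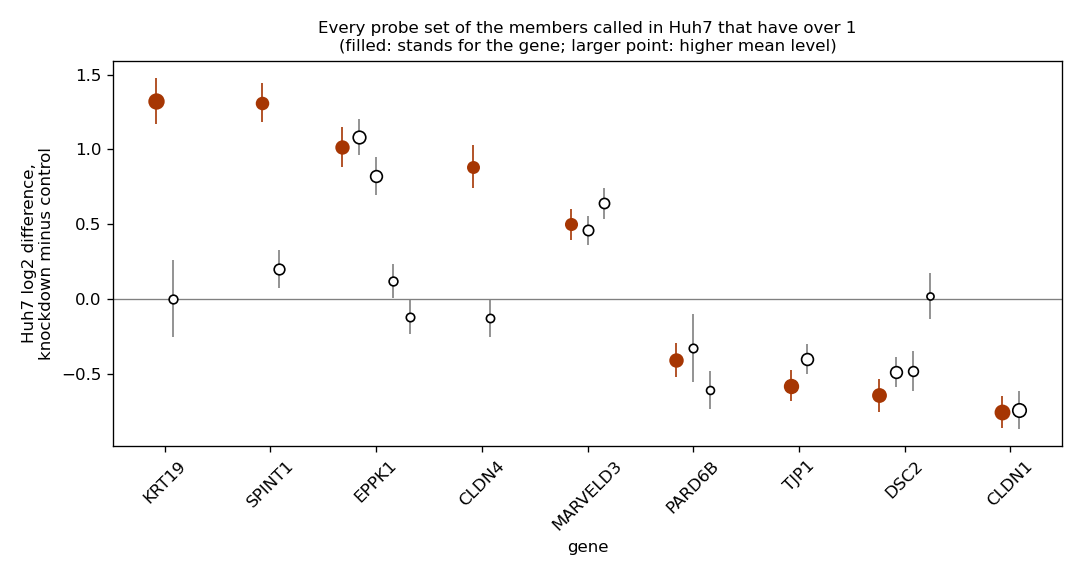
Huh7 log2 difference, knockdown minus control, with standard error, of every probe set of the members that passed in Huh7 and have more than 1; filled points stand for the gene and larger points are brighter. Those of CLDN1 (-0.75 and -0.74), TJP1 and MARVELD3 lie together, while the dimmer probe sets of KRT19 (0.00), SPINT1 (0.20) and CLDN4 (-0.13) lie near 0.

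The membrane protease system consists here of ST14 (matriptase), a surface protease of epithelial cells, and its inhibitors SPINT1 and SPINT2. SPINT1 stood at 6.001 and 5.85 in Huh7 control and at 7.37 and 7.10 in knockdown arrays. Hep-3B had 7.54 and 7.37 in control and at 7.52 and 7.72 in knockdown arrays, which overlapped. It rose by 1.31 on the log2 scale in Huh7 (SE 0.13, limma adjusted p = 0.00125), against 0.17 in Hep-3B (95% interval -0.13 to 0.46). The difference between the lines was 1.14 (SE 0.18, limma adjusted p = 0.034). Its dimmer probe set gave 0.20 in Huh7 and did not pass (limma adjusted p = 0.395). Averaged, the SPINT1 probe sets gave 0.75 and passed (limma adjusted p = 0.00641). ST14 lay at 0.34 in Huh7 and 0.23 in Hep-3B and SPINT2 at 0.05 and 0.22, and none passed.

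Of the regulators, 5 were measured and none passed in either line alone (0 called by limma). At an unadjusted limma p under 0.05 it was 3 in Hep-3B and 0 in Huh7, beside 3491 and 5441 of all 19775 genes. ELF3 stood at 7.22 and 7.21 in Hep-3B control and at 6.63 and 6.10 in knockdown arrays. In Huh7 it lay at 8.45 and 8.46 in control and at 8.36 and 8.11 in knockdown arrays. All knockdown arrays were below the controls of their line; the difference was -0.85 in Hep-3B (SE 0.16, limma adjusted p = 0.0633) and -0.22 in Huh7 (limma adjusted p = 0.461). The mean of both, -0.53 (SE 0.12, limma adjusted p = 0.018), passed, but not when any one of the 4 control arrays was left out (limma adjusted p = 0.06 and 0.0605 without Hep-3B control replicates 1 and 3, and 0.0632 and 0.0633 without those of Huh7). Among all probe sets the same probe set of ELF3 passed in Hep-3B (limma adjusted p = 0.0459). A dimmer one passed in both lines, at -0.51 in Hep-3B and -0.52 in Huh7 (limma adjusted p = 0.0468 and 0.0133). With the replicate number as a block ELF3 passed in Hep-3B (limma adjusted p = 0.031).

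AP1M2, an adaptor subunit that sorts proteins to the basolateral membrane, went opposite ways in the lines. It stood at 6.99 and 7.02 in Hep-3B control and at 7.39 and 7.88 in knockdown arrays, and at 7.10 and 7.12 in Huh7 control and 6.92 and 6.75 in knockdown arrays. The groups overlapped in neither line, yet neither difference passed (0.63, limma adjusted p = 0.0858, and -0.27, limma adjusted p = 0.29), nor did the difference between the lines (-0.90, limma adjusted p = 0.0951). With only knockdown replicate 3 kept in Hep-3B, the Hep-3B value was 0.87 and the difference between the lines -1.15, and both passed (limma adjusted p = 0.00953 and 0.0213); that lone array is assumed to vary like the other groups. With trend and robust variance the difference between the lines also passed. The splicing regulator ESRP1, at 2.61 to 3.77, and GRHL2, a transcription factor of epithelial cells, at 2.89 to 3.17, lay around the lower quartile of the arrays (3.08 to 3.12). RAB25, a small GTPase of apical recycling, lay at 3.15 to 3.80. The deposited values carry no detection call, so differences in these genes are uncertain.

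Across both lines, the mean of the knockdown differences passed for 15 members, 9 higher and 6 lower, against 15.6% of all genes (7.6% higher and 8.02% lower). When only genes with a level above 5 were fitted, it was 19 of 35 members and 33.4% of all. The mean of the knockdown differences contains the Huh7 difference and so is not independent of it. It took in ELF3 and OCLN, and left out MARVELD3 and PARD6B, at 0.23 and -0.23 (limma adjusted p = 0.0585 and 0.085). As the mean of its probe sets KRT19 did not pass here (0.33, limma adjusted p = 0.0864). The count was 7 and 6 without Hep-3B control replicates 1 and 3, 8 without Hep-3B knockdown replicate 3, and 8 and 7 without Huh7 control replicates 1 and 3. The share of all genes in these fits is not set beside these counts, so the drop is not read as particular to the members. For 18 members (42.9%), 9 higher and 9 lower, the arrays of knockdown and control overlapped in neither line and the direction was the same in both. Over all genes this held for 24.1%, and for 36.1% of genes with a mean above 5. Knockdown arrays lay above the controls in both lines for CLDN3, CLDN4, CGN, JUP, KRT19, EPCAM, EPPK1, SPINT2 and ST14, and below for CLDN1, OCLN, TJP1, DSP, DSG2, DSC2, PKP4, KRT23 and ELF3. None of these 18 passed in Hep-3B, and CLDN3, CGN, SPINT2, ST14, OCLN, DSP, DSG2, PKP4 and ELF3 passed in neither line alone.

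The knockdown differences of KRT19 and SPINT1 alone differed between the lines, 2 of 42 members, both higher in Huh7, against 1.26% of all genes (0.445% higher and 0.814% lower). Neither call held without Hep-3B control replicate 1 or 3, Hep-3B knockdown replicate 1 or 3, Huh7 control replicate 1 or 3 or Huh7 knockdown replicate 1 (KRT19 0.94 to 1.26, limma adjusted p = 0.0784 to 0.189; SPINT1 1.01 to 1.24, limma adjusted p = 0.0623 to 0.155). The other 13 members that passed in Huh7 were not shown to respond differently in Hep-3B. KRT8 came nearest (0.61, limma adjusted p = 0.0859), followed by DSC2 (-0.60, limma adjusted p = 0.1).

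Between control Huh7 and control Hep-3B 24 of 42 members differed, 8 higher and 16 lower in Huh7, against 32.7% of all genes (17.7% higher and 14.9% lower). Bright genes differed more often: among genes with a mean above 5 fitted alone, 23 of 35 members differed, against 53.8% of all. Control arrays of the lines did not overlap for 38 members and for 67.1% of all genes. CLDN6, a claudin of fetal and stem cells, stood at 9.10 and 8.87 in Hep-3B control and at 3.77 and 3.34 in Huh7 control arrays. Its difference was -5.43 (SE 0.22, limma adjusted p = 4.57e-07), and since the Huh7 values lie close to the lower quartile of the arrays its size is uncertain. KRT19 differed by -3.92 (SE 0.15, limma adjusted p = 3.53e-07), or by -2.25 as the mean of its probe sets. The plaque protein PKP3 stood at 7.77 and 7.79 in Hep-3B and at 6.10 and 5.78 in Huh7 control arrays (-1.84, SE 0.12, limma adjusted p = 9.18e-06).

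All 5 desmosome genes that differed were lower in Huh7, namely PKP3, JUP (-1.43), EPPK1 (-1.41), DSP (-1.11) and DSG2 (-0.90). So were the 4 keratins that differed: KRT19, KRT8 (-1.29), KRT23 (-1.07) and KRT18 (-0.66). Tight junction genes went both ways. CLDN1 (1.19), CLDN7 (1.18), TJP3 (1.14), CLDN3 (0.60), the junction scaffold CGN (0.59) and MARVELD2 (0.38) were higher in Huh7, and CLDN4 (-1.15) and MARVELD3 (-0.78) lower beside CLDN6. ELF3 was 1.24 higher in Huh7. CDH3 was higher (0.37), and SPINT1 (-1.53), EPCAM (-0.74) and PARD6B (-0.35) were lower. RAB25 passed at -0.46, but its values lie near the lower quartile of the arrays, so that call is uncertain. As means of their probe sets CLDN4 was at -0.45, EPPK1 at -0.78, SPINT1 at -0.86, CGN at 0.36 and ELF3 at 2.03, all still passing, while MARVELD2, at 0.23, did not pass (limma adjusted p = 0.0587) and PARD6B changed sign, to 0.61. Calls of CDH3, MARVELD2, PARD6B and RAB25 did not pass without at least 1 of the control arrays.

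The Huh7 knockdown and the comparison of control lines share the Huh7 control arrays, so a chance deviation of those arrays would enter both; the values are therefore only set side by side. SPINT1 had group means of 7.46 in Hep-3B control, 5.92 in Huh7 control and 7.24 in Huh7 knockdown. For CLDN4 these were 6.76, 5.61 and 6.49, for EPPK1 8.32, 6.91 and 7.93, for MARVELD3 6.86, 6.08 and 6.57, and for JUP 8.92, 7.49 and 8.19. KRT19 lay at 12.06, 8.14 and 9.47, KRT8 at 11.49, 10.20 and 10.83, and EPCAM at 11.21, 10.47 and 10.83. CLDN1 lay at 9.47, 10.67 and 9.91. KRT23, at 11.53, 10.46 and 10.05, and PARD6B, at 8.40, 8.04 and 7.63, lay further from Hep-3B control after knockdown. These are all the members that passed in both comparisons.

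**Figure D4:**
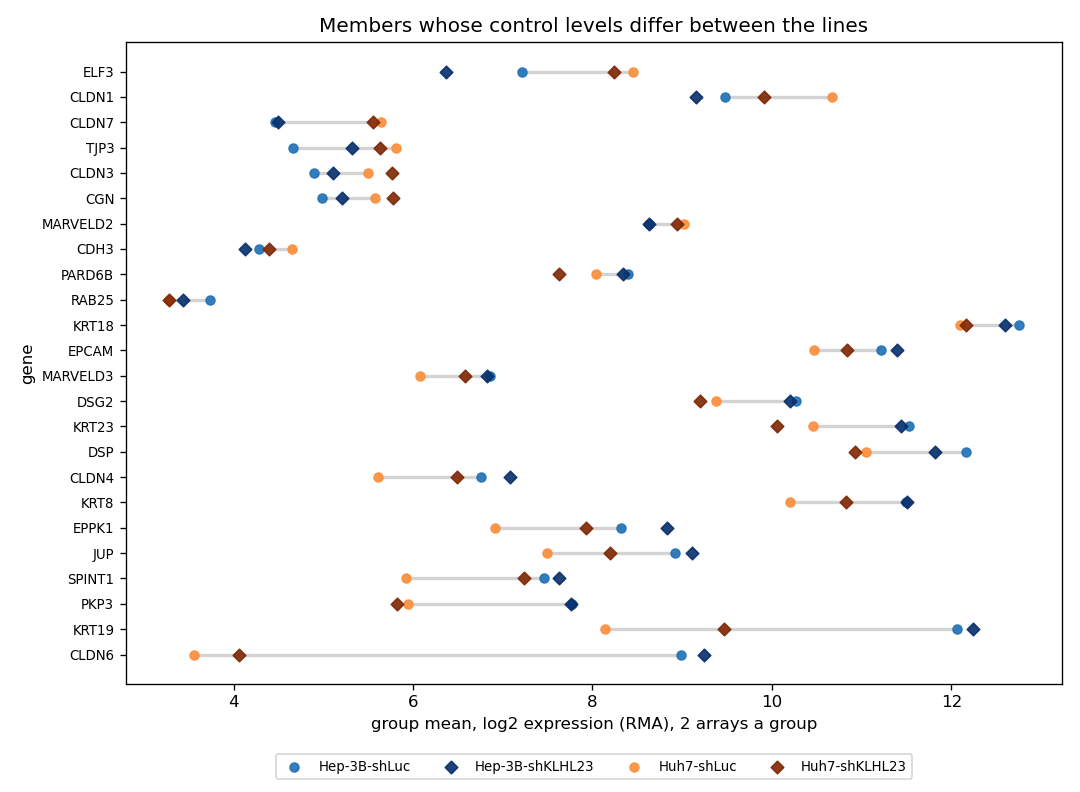
Group means on the log2 scale for the 24 members whose control levels differed between the lines; circles are controls and diamonds knockdown, blue for Hep-3B and brown for Huh7, and grey bars join the controls. The widest bars are those of CLDN6 (-5.43) and KRT19 (-3.92), and in Huh7 the knockdown mean of SPINT1 lies near the Hep-3B control mean.

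The rest of the junction machinery was read from a list of 80 further genes, of which 73 were measured. In Huh7 4 rose and 3 fell, a share of 9.59% beside the 13.5% of all genes. E-cadherin (CDH1), the adherens junction cadherin, rose by 1.01 (SE 0.12, limma adjusted p = 0.00284). KRT15 (0.89), the lipid enzyme CDS1 (0.79) and the gap junction protein GJB1 (0.74), connexin 32 of hepatocytes, also rose. The adherens junction protein PLEKHA7 fell most (-0.92, SE 0.08, limma adjusted p = 0.000956), with the transcription factor GRHL1 (-0.74) and CLDN18 (-0.38). PLEKHA7 stood at 6.48 and 6.43 in Huh7 control and at 5.50 and 5.57 in knockdown arrays, and its difference between the lines passed (-0.75, limma adjusted p = 0.0349). The count of 7 was 4 and 2 without Huh7 control replicates 1 and 3, and 12 without Huh7 knockdown replicate 3, beside 2.82%, 2.76% and 15.3% of all genes. Among genes with a mean above 5 fitted alone, 13 of 41 of these genes passed, beside 29.2% of all. In Hep-3B 0 of the 73 passed by limma, beside 0.693% of all genes. At an unadjusted limma p under 0.05 it was 12 of the 73, and 3491 of all 19775 genes.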

How the data were processed

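The deposited log2 values were made by the authors by RMA, and the submitters' processing notes name Affymetrix Expression Console 1.2; other settings are not given in the sources used here. RMA corrects background, quantile-normalises the arrays and summarises probes, which shrinks changes of dim probe sets and hides changes in total RNA. Of 54675 probe sets, 41097 had 1 gene symbol in the platform annotation, 1801 several and 11777 none; 41043 were looked up in RefSeq (GRCh38.p14), which changed 0 symbols. The test was limma 3.58.1 (R 4.3.3; lmFit and eBayes, a mean for each of 4 groups, 4 residual and 4.59 prior degrees of freedom), with Benjamini-Hochberg adjustment over 19775 genes. The number of arrays limits the precision. The procedure was tested on simulated data. Members, lists and tests were chosen with earlier results of these data known. By the rule for named genes, members that passed were to be given with all array values. For some of them the Hep-3B arrays are given as a range. Other members are given by range with the furthest in their role group, with up to 4 further junction genes per direction. Alternatives were another normalization, centring, probe set choice, filter, variance model, replicate block and leaving out each array. The labels do not say whether same-numbered arrays form pairs, and the main fit did not pair them.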

Additional observations from a re-analysis of the deposited data

Results flagged for a closer look

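Knockdown differences that differed between the lines were found for KRT19 (Huh7 minus Hep-3B, 1.14) and SPINT1 (1.14), by limma's test of the difference itself. Both rested on the brighter of 2 probe sets, and when each gene's probe sets were averaged neither passed (0.66 and 0.67). With n = 2 per group no array could be tested as an outlier.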

How the results depend on the processing

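The limits come from 2 arrays per group. Of the 15 members that passed in Huh7, CLDN1, EPPK1, KRT19 and SPINT1 passed in all 18 alternatives run, and 226 of 264 recomputed values kept direction and call, with 0 reversed. In part of these fits the direction was fixed in advance. Leaving out a Hep-3B array, the replicate block, or trend and robust variance cannot move a Huh7 difference, only its SE and call. Values from those fits therefore say nothing about direction. The count of 15 ranged from 6 to 15 when 1 array was left out. In Hep-3B 0 became 1 with the replicate block, with genes above 5 only and with all probe sets fitted together (an alternative chosen after seeing the data), 2 with array weights, 4 with trend and robust variance, and 0 to 4 with 1 array left out. For the mean of both lines, 15 became 9 of 30 without _x_at and _s_at probe sets, where EPCAM, JUP, KRT23, KRT8 and LSR were not measured and OCLN did not pass, and 6 to 19 with 1 array left out. Between the lines, 2 became 1 with the replicate block, 0 with the mean of probe sets, 5 with trend and robust variance and 0 to 3 with 1 array left out. The 24 of the control comparison ranged from 21 to 25 with 1 array left out; PARD6B reversed there with the mean of its probe sets (0.61, limma adjusted p = 0.00121). The cause of the other changes was not tested. The share of all genes also moved between fits. In Hep-3B it was 2.14% with the replicate block and 3.13% with genes above 5 only, beside 0.693% as reported. For the mean of both lines it was 12.9% without _x_at and _s_at probe sets, beside 15.6%. Between the lines it was 1.14% with the replicate block and 1.17% with the mean of probe sets, beside 1.26%. With all probe sets fitted together the count took only the brightest of each gene. In Hep-3B dimmer probe sets of CLDN1, DSG2 and ELF3 also passed in that fit.

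For the further junction genes, Hep-3B gave 6 with the replicate block (2.14% of all genes) and 1 with genes above 5 only (3.13%). It gave 2 with all probe sets (1.52% of all probe sets), 4 with array weights and 4 with trend and robust variance. The count also changed with 1 array left out. Huh7 gave 11 with a further quantile normalization (13.9% of all genes), 13 of 41 with genes above 5 only (29.2%) and 2 to 12 with 1 array left out. KLHL23 in Hep-3B, at -1.14, passed with the replicate block (-1.14, limma adjusted p = 0.0395), with array weights (-1.14, 0.0424) and without knockdown replicate 1 (-1.67), and ranged from -1.67 to -0.61 with 1 array left out. Deviations of same-numbered arrays correlated at -0.07 in Hep-3B and 0.06 in Huh7, so no large common shift by replicate number was seen. Whether same-numbered arrays were handled as pairs is not in the labels, and the replicate block allows for it. With that block ELF3 passed in Hep-3B (limma adjusted p = 0.031), PARD6B (0.0711) and EPCAM (0.0635) did not pass in Huh7, OCLN (0.0582) and KRT23 (0.0706) in the mean of both lines, KRT19 (0.057) between the lines or PARD6B (0.0529) between control lines.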

Other observations

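Among the 73 further junction genes 35 differed between the control lines, beside 32.7% of all genes. PRSS8, the membrane-anchored protease prostasin, stood at 7.38 and 7.23 in Hep-3B control and at 3.82 and 3.85 in Huh7 control arrays. In the Hep-3B knockdown arrays it stood at 6.64 and 6.73, a difference of -0.62 that did not pass (limma adjusted p = 0.0633). The gap junction gene GJB2 (connexin 26) went the other way between lines, at 3.02 and 3.32 in Hep-3B and 5.92 and 6.06 in Huh7 control arrays. The Hep-3B values of GJB2 lie close to the lower quartile of the arrays, and the Huh7 values of PRSS8 not far above it. The sizes of both differences between the lines are therefore uncertain.

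KRT20, a keratin of gut epithelium, had the largest Hep-3B difference of that list, 1.22 (limma adjusted p = 0.135). Its knockdown arrays were uneven, at 5.75 and 7.13 against controls of 5.17 and 5.27.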
